A study of Mus musculus with 56 samples.

Results

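The 10 genes described here encode the transcription factor NRF2 (gene symbol Nfe2l2) and 9 enzymes and transporters of antioxidant defence: Nqo1, Gclc, Gclm, Hmox1, Txnrd1, Srxn1, Slc7a11, Gpx4 and Cat. They were taken by symbol from the 21935 genes of the deposited liver count table, and all 10 were found and passed the filter on low counts. The mRNA was measured by RNA sequencing of livers from 56 male C57BL/6J mice in 7 groups of 8 mice. Chow-fed mice received vehicle. The other 6 groups ate the AMLN diet, high in fat with added fructose and cholesterol, for 36 weeks before dosing, and were chosen on a liver biopsy that showed steatosis and fibrosis; this is the DIO-MASH model of metabolic dysfunction-associated steatohepatitis. For 8 weeks these mice were injected under the skin each day with vehicle, with zalfermin at 0.05 mg/kg (low dose) or 0.2 mg/kg (high dose), with semaglutide at 3 µg/kg (low dose) or 120 µg/kg (high dose), or with both drugs. Semaglutide activates the GLP-1 receptor, and zalfermin mimics the liver hormone FGF21 with a prolonged action. The study's methods give the combination as the low doses of both drugs, whereas the design text deposited with the data gives the high doses, so the dose of the combination is uncertain here. No group received a drug on chow.

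NRF2 is held low in unstressed cells because KEAP1 and the ubiquitin ligase CUL3 mark it for breakdown. Oxidants and electrophiles change cysteines of KEAP1, NRF2 then accumulates, pairs with a small MAF protein and binds antioxidant response elements near its target genes, where BACH1 competes with it. Much of this control acts on the NRF2 protein, which RNA sequencing does not measure. In liver the targets make glutathione, regenerate thioredoxin and peroxiredoxins, remove lipid peroxides and clear quinones and drugs.

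Total counts were between 5228187 and 20885786 per mouse, with a median of 12206788. Levels are given as CPM (a gene's reads per 1000000 reads of its library, with TMM-scaled library sizes), and fold changes as log2 ratios from one model over all 56 mice (edgeR's quasi-likelihood test, with Benjamini-Hochberg adjustment over 14105 genes and a threshold of 0.05). Some libraries stood apart. Mouse 8 of the chow-fed group had the lowest median correlation with its group (0.940), and its summed cholangiocyte markers were at 271 CPM against 7.34 to 15.1 CPM in the other chow-fed mice. Mouse 6 of high-dose zalfermin (0.965) had lipid-associated macrophage markers at 76.8 CPM, against 198 to 416 CPM in the other mice of its group. Its stellate cell markers were at 244 CPM against 451 to 552 CPM. It had the lowest Nfe2l2 and Gpx4 and the highest Cat of its group. Mouse 6 of low-dose semaglutide (0.965) had lipid-associated macrophage markers at 77.4 CPM, against 242 to 558 CPM in the other mice of its group. The study excluded 1 mouse of the low-dose semaglutide group, which the labels do not mark. All 8 were therefore kept, and each result was also computed without mouse 6 of that group.

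Srxn1, whose mRNA differed from vehicle in the largest number of comparisons, is shown first by the sequence before its start site. It was chosen because, among the windows of the genes described here, its window held the most matches to the 3 motifs searched. A stretch that matched 2 motifs was counted for each. The motifs were TGACNNNGC, the core of the antioxidant response element, TGAGNNNGC, a variant of that core, and TGAGTCA, the site of AP-1, another family of transcription factors. The sequence is from RefSeq's GRCm38.p6 assembly, chr2:152105346-152105507 on the plus strand, and the capitals mark matches to the letters TGAGNNNGC and TGAGTCA on either strand. Of 32851 promoter windows of 250 bases before a start site, 14.4% held TGAGNNNGC and 4.46% held TGAGTCA. The Srxn1 window held TGAGNNNGC at 158 bases before the start (reverse strand) and at 45 bases (forward strand), and the AP-1 letters TGAGTCA at 102 bases and at 45 bases, where the 2 motifs overlap. It held 0 matches to TGACNNNGC.

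Srxn1: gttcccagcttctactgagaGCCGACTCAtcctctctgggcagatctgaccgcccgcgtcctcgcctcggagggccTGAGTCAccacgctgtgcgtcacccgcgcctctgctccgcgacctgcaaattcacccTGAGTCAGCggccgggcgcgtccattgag

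Of the 10 genes, 8 had at least 1 promoter window: Txnrd1 had 3, Gpx4 had 4 and the rest of the 8 had 1 each. Of the 3 Txnrd1 windows, 1 held a match. The core TGACNNNGC was found in 10.2% of all windows and in windows of Nfe2l2 (240 bases before the start), Gclm (134 bases) and Txnrd1 (92 bases), and TGAGNNNGC was found in Slc7a11 (97 bases). These stretches, with the match in capitals, lie at chr2:75704875-75704913 (minus strand) for Nfe2l2, chr3:122245403-122245451 (plus) for Gclm, chr10:82859094-82859142 (plus) for Txnrd1 and chr3:50443682-50443730 (minus) for Slc7a11. They are shown so that genes whose mRNA moved in different ways can be compared. No match was found in the windows of Nqo1, Cat or Gpx4. Gclc and Hmox1 had no window. A match is a description of these letters only.

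Nfe2l2: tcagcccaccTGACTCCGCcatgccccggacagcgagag
Gclm: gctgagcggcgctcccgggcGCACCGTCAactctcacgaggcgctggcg
Txnrd1: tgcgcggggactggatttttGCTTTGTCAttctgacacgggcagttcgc
Slc7a11: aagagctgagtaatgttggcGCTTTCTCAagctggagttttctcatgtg

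Against DIO-MASH vehicle, the sulfiredoxin gene Srxn1 and the lipid peroxidase gene Gpx4 were lower in chow-fed mice, with high-dose zalfermin and with the combination, and Srxn1 also with high-dose semaglutide. Nfe2l2 itself was lower in chow-fed mice and with high-dose zalfermin, while catalase (Cat) was higher in the same groups. In chow-fed mice 7 of the 10 genes passed the threshold, 2 higher and 5 lower, where 55.4% of all genes tested did (26.5% higher and 28.9% lower). With high-dose zalfermin 6 of 10 passed, 1 higher and 5 lower, where 17.2% of all genes did (8.54% higher and 8.68% lower). With the combination 3 of 10 passed, all lower, against 20.9% of all genes (10.9% lower), and with high-dose semaglutide 1 of 10 passed, against 2.43%. Neither low dose moved a gene of the set past the threshold. With low-dose zalfermin edgeR called 0 of 10 (0.468% of all genes), 3 had an unadjusted p under 0.05 and DESeq2 called 1. With low-dose semaglutide edgeR called 0 of 10 and none of all genes (0%), where 1 of the 10 and 1222 of all genes had an unadjusted p under 0.05, and DESeq2 called 0 of the 10 and 32 of all genes. The median log2 fold change of the 10 genes was -0.28 in chow-fed mice (-0.01 over all genes), -0.46 with high-dose zalfermin (-0.02), -0.20 with high-dose semaglutide (-0.01) and -0.13 with the combination (-0.03). All these comparisons share the 8 vehicle mice.

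**Figure D1:**
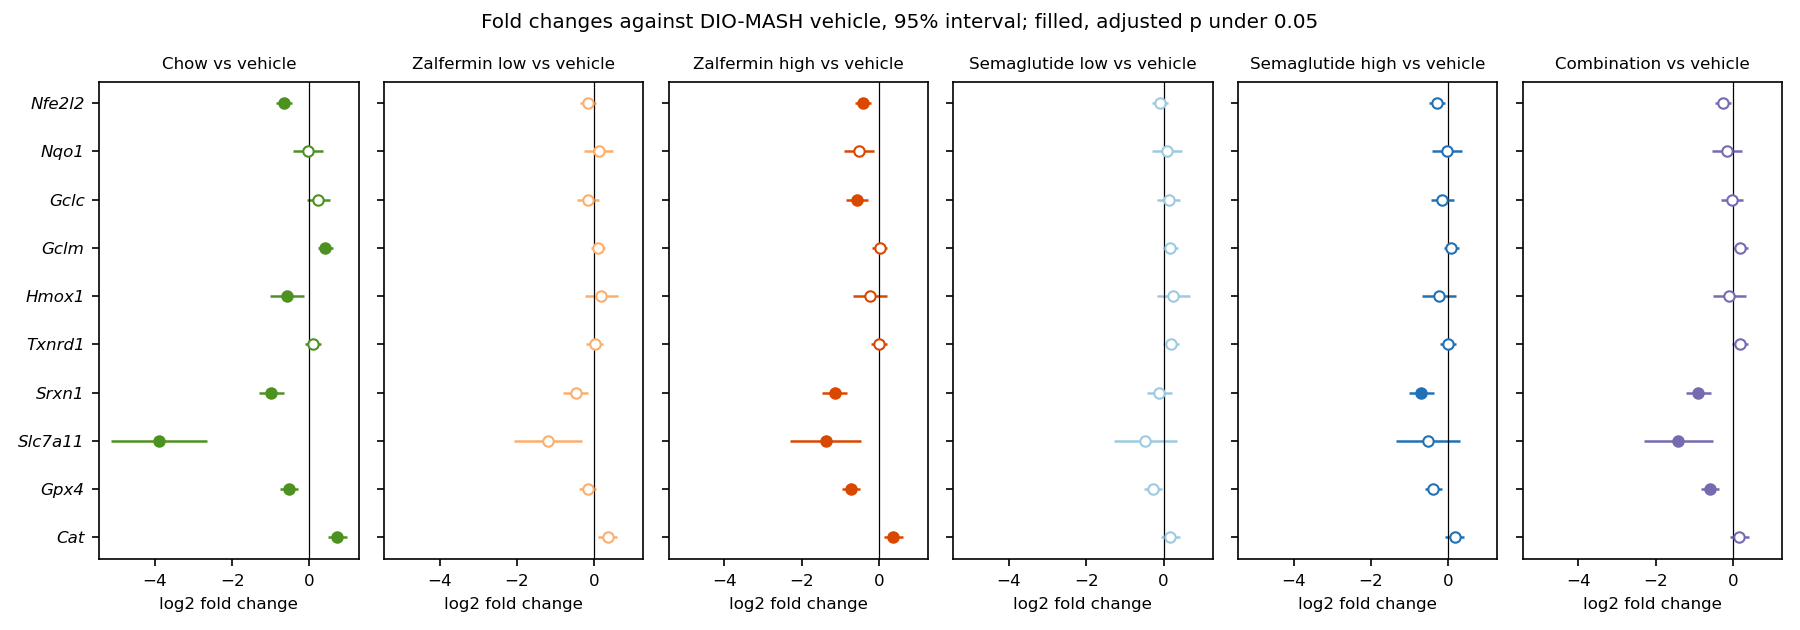
Log2 fold changes of the 10 genes against DIO-MASH vehicle (x axis, log2 ratio) in 6 panels, 1 for each other group; points are edgeR estimates, lines are 95% intervals, and filled points have an adjusted p under 0.05. Filled points number 7 in chow-fed mice, 0 with low-dose zalfermin, 6 with high-dose zalfermin, 0 with low-dose semaglutide, 1 with high-dose semaglutide and 3 with the combination.

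**Figure D2:**
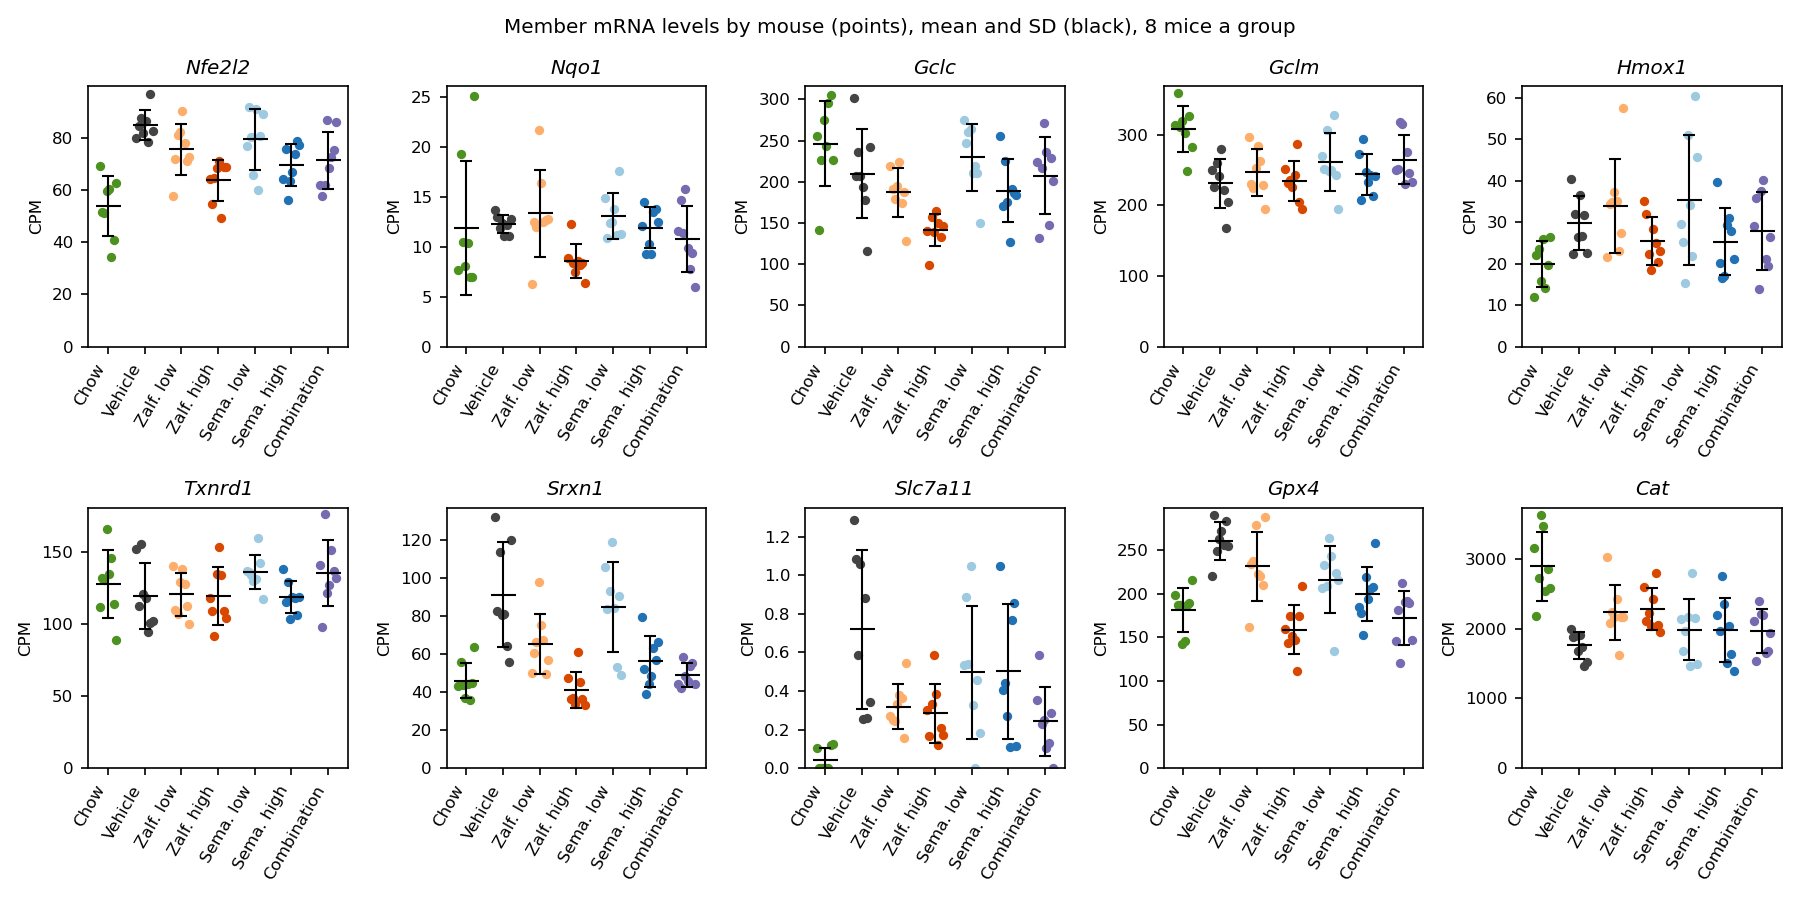
Level of each of the 10 genes in CPM (y axes, linear, from 0) in every mouse; points are mice, black lines the mean and SD of the 8 mice of a group. Srxn1 ranges from 55.8 to 132 CPM in vehicle mice and from 33.4 to 61.2 CPM with high-dose zalfermin, whereas group means of Txnrd1 lie between 118 and 136 CPM.

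In bulk liver, fewer cells of a type and less RNA per cell cannot be told apart, and cell type markers moved with the same groups. The 6 hepatocyte markers summed to between 67623 and 89785 CPM in vehicle mice, 153703 and 240050 CPM in chow-fed mice, 83790 and 141460 CPM with high-dose zalfermin and 89870 and 146278 CPM with the combination. Of these 6 markers, 6 were higher in chow-fed mice, 5 with high-dose zalfermin and 5 with the combination. Lipid-associated macrophage markers summed to between 343 and 746 CPM in vehicle mice, 59.6 and 120 CPM in chow-fed mice, 76.8 and 416 CPM with high-dose zalfermin and 95.4 and 474 CPM with the combination, and 5, 3 and 2 of the 6 were lower. Stellate cell markers ranged from 751 to 1297 CPM in vehicle mice, from 121 to 231 CPM in chow-fed mice, from 244 to 552 CPM with high-dose zalfermin and from 274 to 585 CPM with the combination, and 4, 2 and 4 of the 6 were lower. T cell and B cell markers were lower in chow-fed mice, 4 of 4 in each list, at sums of 0.652 to 6.65 CPM (T cell) and 0.870 to 4.72 CPM (B cell) against 2.10 to 13.8 CPM and 2.35 to 44.9 CPM in vehicle mice. With high-dose semaglutide 4 of 4 B cell markers were lower (1.86 to 5.28 CPM in sum) and 2 of 6 stellate cell markers (288 to 1257 CPM), with 0 of 6 lower among lipid-associated macrophage markers. Of the 4 neutrophil markers tested, 2 were higher in chow-fed mice. The neutrophil sums there were 0.631 to 33.9 CPM (median 2.58), highest in mouse 2 (33.9 CPM) and mouse 7 (11.5 CPM). In vehicle mice they were 1.28 to 3.62 CPM (median 2.18). The neutrophil marker Ly6g was at 0 in the vehicle, low-dose zalfermin and high-dose semaglutide groups. The part of cell composition in the differences between groups was not tested.

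Nfe2l2 (ENSMUSG00000015839, GRCm38 chr2:75675513-75704641, minus strand) encodes NRF2. The lowest, median and highest levels were 78.4, 83.6 and 96.8 CPM in vehicle mice, 34.5, 55.7 and 69.3 CPM in chow-fed mice, and 49.2, 66.6 and 71.1 CPM with high-dose zalfermin. Every chow-fed mouse and every mouse on high-dose zalfermin was thus below every vehicle mouse, a separation that 16% and 4.80% of all genes showed in these comparisons. The log2 fold change was -0.66 (SE 0.105, edgeR adjusted p = 7.21e-07) in chow-fed mice and -0.41 (SE 0.105, adjusted p = 0.00366) with high-dose zalfermin. The other groups lay between: means ± SD were 69.6 ± 8.05 CPM with high-dose semaglutide, 71.3 ± 11 CPM with the combination, 75.7 ± 9.74 CPM with low-dose zalfermin and 79.5 ± 11.7 CPM with low-dose semaglutide (n = 8 each), and no neighbours in this order differed by more than the larger SD. With the combination the log2 fold change was -0.25 (adjusted p = 0.0783), and it passed without mouse 4 (0.0418) or mouse 8 (0.0441) of that group.

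Slc7a11 (ENSMUSG00000027737, chr3:49892526-50443614, minus strand) encodes the cystine importer xCT, which brings in the cysteine for glutathione. It was the least abundant of the 10 genes, with 276 reads in all 56 mice. Vehicle mice had 0.254, 0.734 and 1.29 CPM (lowest, median, highest) from 79 reads. In chow-fed mice 3 reads were found in all, 5 of 8 mice were at 0 and the highest was at 0.123 CPM, below every vehicle mouse. The ratio of pooled reads per library total, vehicle over chow, was 26.8, with an exact 95% binomial interval of 8.84 to 133. Vehicle over high-dose zalfermin was 3.22 (1.98 to 5.42) from 22 reads in the treated mice, and vehicle over the combination 3.12 (1.98 to 5.07) from 26 reads. The reads of the 8 mice of a group were pooled, so these intervals cover counting error only and leave out the spread between mice. Vehicle mice ran from 3 to 24 reads. Reads are also not independent molecules, and the library totals were not TMM-scaled here. With TMM scaling, the model's ratio of vehicle over chow was 14.8. It was 2.60 for vehicle over high-dose zalfermin and 2.68 for vehicle over the combination. The model called Slc7a11 lower in chow-fed mice (adjusted p = 1.05e-06), with high-dose zalfermin (0.0335) and with the combination (0.0204), and its fold changes of so few reads depend on the prior count. The call with high-dose zalfermin was lost without vehicle mouse 1 (0.0863), 2 (0.0698), 4 (0.0557) or 6 (0.0522), or without mouse 2 (0.0643), 6 (0.0650), 7 (0.0543) or 8 (0.0679) of that group. The call with the combination was lost without vehicle mouse 1 (0.0579).

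The rate-limiting step of glutathione synthesis is carried out by glutamate-cysteine ligase, made of the catalytic subunit Gclc (ENSMUSG00000032350, chr9:77754535-77794485, plus strand) and the modifier subunit Gclm (ENSMUSG00000028124, chr3:122245557-122270732, plus strand). Of the subunits, Gclc alone passed the threshold with high-dose zalfermin and Gclm alone in chow-fed mice. Gclc was at 116, 207 and 302 CPM in vehicle mice and at 99.2, 144 and 164 CPM with high-dose zalfermin, with overlapping ranges, a log2 fold change of -0.57 (SE 0.149, adjusted p = 0.00455). Its mean with high-dose zalfermin was the lowest of the 7 groups, and the gap to the next, low-dose zalfermin (187 ± 29.6 CPM), exceeded the larger SD. The edgeR test of the high against the low dose did not call Gclc (log2 -0.41, adjusted p = 0.165). The size of the difference between high-dose zalfermin and vehicle varied with the sample number. Mice can be placed by their numbers in 4 series, which no source calls batches, and 1 of these holds 3 mice, none of them treated. The difference was -0.94, -0.48 and -0.04 on the log2 scale in the other 3, with 2 or 3 mice of a group in each. In chow-fed mice the log2 fold change of Gclc was 0.23 (adjusted p = 0.183). Gclm was at 168, 233 and 279.5 CPM in vehicle mice and at 249, 313 and 359 CPM in chow-fed mice, higher by 0.41 on the log2 scale (SE 0.0966, adjusted p = 0.000292). With high-dose zalfermin Gclm was at 234 ± 28.2 CPM, and its log2 fold change was 0.02 (95% interval -0.17 to 0.21, adjusted p = 0.926).

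Gpx4 (ENSMUSG00000075706, chr10:80047166-80056439, plus strand) encodes the selenoenzyme that uses glutathione to reduce lipid peroxides in membranes and so limits ferroptosis. Vehicle mice were the highest group, at 220, 259 and 290 CPM. Levels were 143, 187 and 216 CPM in chow-fed mice, 121, 185 and 212 CPM with the combination and 111, 156 and 209 CPM with high-dose zalfermin. No mouse of these 3 groups reached the lowest vehicle mouse, and 3.98% of all genes were so separated for the combination. The log2 fold changes were -0.52 (SE 0.117, adjusted p = 0.000161), -0.60 (SE 0.117, adjusted p = 0.000156) and -0.72 (SE 0.117, adjusted p = 9.97e-06), the last a 1.64-fold lower level. With high-dose semaglutide (153, 200 and 258 CPM) the log2 fold change was -0.38 (adjusted p = 0.0608), which passed without mouse 7 (0.0477) or 8 (0.0294) of that group, without mouse 6 of low-dose semaglutide (0.0335), and with DESeq2 (0.0355). Both low doses were between: 232 ± 39.5 CPM with zalfermin and 216 ± 38.2 CPM with semaglutide.

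Txnrd1 (ENSMUSG00000020250, chr10:82833951-82897712, plus strand) encodes the cytosolic thioredoxin reductase, like Gpx4 a selenoenzyme. In both, the amino acid selenocysteine is written by a UGA codon, TGA in the gene, that elsewhere stops translation. The codon is shown in capitals with its neighbours, from GRCm38 with the GENCODE M21 annotation. In Txnrd1-205 it is codon 612 of 613 (chr10:82896037-82896039), and in Gpx4-201 codon 129 of 253 (chr10:80054737-80054739).

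Txnrd1: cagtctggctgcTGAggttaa
Gpx4: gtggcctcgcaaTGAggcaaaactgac

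Group means of Txnrd1 lay between 118 and 136 CPM, and it passed the threshold in 0 of the 6 comparisons with vehicle, by edgeR and by DESeq2 and at an unadjusted p of 0.05. With high-dose zalfermin the 95% interval of the log2 fold change was -0.22 to 0.21, and in chow-fed mice -0.11 to 0.31. Of the 5 genes of selenoprotein synthesis, 5 were higher in chow-fed mice (26.5% of all genes were) and 2 with high-dose zalfermin (8.54%), among them Sephs2, which makes the selenium donor (log2 fold changes 0.62 and 0.57).

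Srxn1 (ENSMUSG00000032802, chr2:152105516-152111376, plus strand) encodes sulfiredoxin, which restores overoxidised peroxiredoxins. The lowest, median and highest levels were 55.8, 81.9 and 132 CPM in vehicle mice, 36.1, 44 and 63.6 CPM in chow-fed mice, 33.4, 36.6 and 61.2 CPM with high-dose zalfermin and 41.9, 47.1 and 58.6 CPM with the combination. Vehicle mice varied widely (91.3 ± 27.5 CPM), and the lowest of them overlapped the highest mice of each of these groups. Srxn1 was 1.98-fold lower in chow-fed mice (log2 -0.99, SE 0.167, adjusted p = 1.88e-06), 2.21-fold lower with high-dose zalfermin (log2 -1.15, SE 0.167, adjusted p = 1.30e-06) and lower with the combination (log2 -0.90, SE 0.166, adjusted p = 6.88e-05). With high-dose semaglutide it was at 38.8, 54.4 and 79.7 CPM, a log2 fold change of -0.70 (SE 0.165, adjusted p = 0.0152). That call was lost without mouse 3 (0.0577) or mouse 4 (0.0542) of the group. Within the sample-number series the difference was -1.01, -0.71 and 0.04, so it did not hold in 1 of the 3. All other called differences from vehicle kept their sign in each of the 3 series, which makes 16 of 17. With the low doses it lay closer to vehicle, at 65.5 ± 15.7 CPM with zalfermin (log2 -0.48, adjusted p = 0.188) and 84.8 ± 23.8 CPM with semaglutide (log2 -0.11, adjusted p = 0.876).

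Cat (ENSMUSG00000027187, chr2:103453849-103485160, minus strand) encodes catalase, which splits hydrogen peroxide in peroxisomes. It had the highest level for its length in vehicle mice, 674 CPM per kilobase of exon, followed by Gpx4 at 151 CPM per kilobase, while Slc7a11 was lowest at 0.0517 CPM per kilobase. Cat was at 1463, 1804 and 1997 CPM in vehicle mice, 2184, 2791 and 3628 CPM in chow-fed mice, and 1957, 2172 and 2797 CPM with high-dose zalfermin. Every chow-fed mouse was above every vehicle mouse, and chow-fed mice also exceeded the next group, high-dose zalfermin, by more than the larger SD. The chow-fed level was 1.64-fold higher (log2 0.72, SE 0.127, adjusted p = 4.34e-06). With high-dose zalfermin the log2 fold change was 0.37 (SE 0.126, adjusted p = 0.0331). That call was lost without vehicle mouse 4 (0.0680), 6 (0.0528), 7 (0.0734) or 8 (0.0715), or without mouse 1 (0.0669), 5 (0.0573) or 6 (0.0894) of the treated group.

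Nqo1 (ENSMUSG00000003849, chr8:107388225-107403206, minus strand) encodes a quinone reductase often used to read NRF2 activity. It passed the threshold in no comparison with vehicle. Vehicle mice lay close together, at 11.1, 12.3 and 13.7 CPM, and mice on high-dose zalfermin at 6.38, 8.40 and 12.2 CPM, with a log2 fold change of -0.52 (SE 0.202, adjusted p = 0.0684). Without mouse 2 of that group, the highest, the difference passed (0.0368), and in a fit of the 2 groups alone the adjusted p was 0.00262. Chow-fed mice were spread from 6.98 to 25.1 CPM around a median of 9.26 CPM, with mouse 2 at 19.3 CPM and mouse 8 at 25.1 CPM. The log2 fold change there was -0.04 (adjusted p = 0.863), and -0.29 (adjusted p = 0.182) without mouse 8, the mouse with high cholangiocyte markers.

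Hmox1 (ENSMUSG00000005413, chr8:75093621-75100589, plus strand) encodes heme oxygenase 1, which breaks heme down to biliverdin, iron and carbon monoxide and is prominent in macrophages that take up red blood cells. It was at 22.3, 29.1 and 40.3 CPM in vehicle mice and at 12, 20.8 and 26.3 CPM in chow-fed mice, with overlapping ranges. The log2 fold change was -0.59 (SE 0.224, adjusted p = 0.0229), and the call was lost without chow-fed mouse 1 (0.0568) or 6 (0.0501) or vehicle mouse 1 (0.0606). Macrophage markers were lower in chow-fed mice in 6 of 6, at sums of up to 288 CPM against 360 to 578 CPM in vehicle mice. Kupffer cell markers summed to between 71.2 and 519 CPM against between 117 and 414 CPM. Of these 6 markers, 2 were higher and 1 was lower in chow-fed mice (26.5% and 28.9% of all genes). With the combination 3 of the 6 were higher and 0 lower (10% and 10.9% of all genes). Across the 56 mice, within groups, Hmox1 correlated with the summed macrophage markers (r = 0.52, permutation p = 0.00035, adjusted p = 0.00226; rho = 0.50, permutation p = 0.00045, adjusted p = 0.00412; r = 0.52 without the 2 farthest mice). With the summed Kupffer cell markers r was higher, at 0.72 (permutation p = 1e-05, adjusted p = 0.000183). The part of either cell type in the lower Hmox1 was not tested. No treatment moved Hmox1 past the threshold, and its SD was largest with low-dose semaglutide (35.4 ± 15.6 CPM).

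The treated groups were also compared with each other, with most pairs showing few differences in these genes. The high and low doses of zalfermin were compared in all 10 genes, and 2 were lower at the high dose (1.84% of all genes passed, 1.40% lower). Gpx4 had a log2 fold change of -0.54 (SE 0.117, adjusted p = 0.00625) and Srxn1 one of -0.66 (SE 0.167, adjusted p = 0.0220). The combination was lower than low-dose zalfermin in Gpx4 alone of the 10 (log2 -0.43, SE 0.117, adjusted p = 0.0170), where 6.62% of all genes passed. It was lower than low-dose semaglutide in Srxn1 alone (log2 -0.79, SE 0.166, adjusted p = 0.00228), where 4.21% passed, and Gpx4 joined it without mouse 6 of low-dose semaglutide (0.0156). Against high-dose zalfermin edgeR called 0 of the 10 (0.503% of all genes), with Gclc higher by 0.55 in the combination at an adjusted p of 0.0669. That was the 1 gene with an unadjusted p under 0.05, and the 1 gene DESeq2 called.

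The remaining comparisons called 0 of the 10 genes by edgeR and by DESeq2. They were the combination against high-dose semaglutide (1.89% of all genes called, 0 of the 10 at an unadjusted p under 0.05), high against low semaglutide (0%, 2 of the 10 and 549 of all genes at an unadjusted p under 0.05) and high-dose zalfermin against high-dose semaglutide (0.447%, 4 of the 10). The low-dose interaction, in which the combination is set against the sum of both low doses as the study's methods describe it, called 0.0142% of all genes and 0 of the 10, with Cat alone at an unadjusted p under 0.05. At 8 mice a group these results do not show that levels were equal.

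The wider pathway was followed in 86 further genes in 9 lists, all of which passed the filter. In chow-fed mice 40 were higher and 15 lower, where 26.5% and 28.9% of all genes were. With high-dose zalfermin 15 were higher and 16 lower (8.54% and 8.68% of all genes), and with the combination 17 and 13 (10% and 10.9%). With high-dose semaglutide 2 of the 86 passed, near the share of all genes (2.43%). They were the methionine adenosyltransferase Mat1a, which was higher, and the carbonyl reductase Cbr3, which was lower. Low-dose zalfermin raised Cth, Mat1a and Txn2 and lowered none, where 0.468% of all genes passed. Low-dose semaglutide, for which edgeR called no gene at all, moved none of the 86.

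Of 20 detoxification genes known as NRF2 targets, 9 were lower and 2 higher with high-dose zalfermin (8.68% and 8.54% of all genes; median log2 fold change -0.48), 6 lower and 3 higher with the combination (10.9% and 10%), and 3 lower and 8 higher in chow-fed mice (28.9% and 26.5%). Gstm3, a glutathione transferase, was at 52 ± 18.1 CPM with high-dose zalfermin and at 231 ± 49.4 CPM in vehicle mice, a log2 fold change of -2.15 (SE 0.344, adjusted p = 7.02e-06). Ugdh, which makes the sugar donor for glucuronidation, had a log2 fold change of -0.82 (adjusted p = 1.57e-05) and Cbr3 one of -1.60 (adjusted p = 0.000604). In the same mice Gsta3, another glutathione transferase, was higher (log2 0.62, and 1.16 in chow-fed mice). Glutathione transferases are close paralogs, and reads shared between them could have been split in counting.

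Of the 12 genes of glutathione synthesis and recycling, 4 were higher (Mat1a, Cth, Chac2 and Cbs) and 1 was lower (Gss, glutathione synthetase) both with high-dose zalfermin and with the combination. The shares of all genes higher and lower were 8.54% and 8.68% with high-dose zalfermin, and 10% and 10.9% with the combination. Mat1a, Cth and Cbs carry methionine sulfur to cysteine, while Chac2 degrades glutathione. Cth was higher by 2.12 in chow-fed mice (adjusted p = 5.61e-13), by 1.15 with high-dose zalfermin (adjusted p = 1.03e-05) and by 0.90 with the combination. Gss had a log2 fold change of -0.56 with high-dose zalfermin (adjusted p = 0.000125), beside the lower Gclc there. Among the 11 control genes of NRF2, chow feeding gave 4 higher and 1 lower, high-dose zalfermin 0 and 1, and the combination 2 and 1, against the shares of all genes given above. The small MAF genes went in opposite directions. Mafg was higher in chow-fed mice (log2 0.60, adjusted p = 1.54e-05) and with the combination (0.40, adjusted p = 0.00793), while Mafk was lower in chow-fed mice (-0.51), with high-dose zalfermin (-0.43, adjusted p = 0.0111) and with the combination (-0.39). Bach1, whose product competes with NRF2, was higher in chow-fed mice (0.81, adjusted p = 6.01e-05). Keap1, whose product marks NRF2 for breakdown, was higher by 0.18 in chow-fed mice (adjusted p = 0.00529) and by 0.16 with the combination (adjusted p = 0.0391).

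Of 11 thioredoxin and peroxiredoxin genes, which include the substrates of Txnrd1 and Srxn1, 7 passed higher and 2 lower in chow-fed mice (26.5% and 28.9% of all genes), against 3 and 1 with high-dose zalfermin (8.54% and 8.68%). The mitochondrial thioredoxin gene Txn2 was higher in both (0.56 and 0.43), as was Prdx6 (0.49 with high-dose zalfermin). Prdx3 was lower in both, and Txnip was lower in chow-fed mice. With the combination Txn2, Prdx6 and Prdx4 were higher and Prdx3 was lower. Of 8 genes of superoxide and peroxide removal, chow feeding gave 3 higher and 4 lower (26.5% and 28.9% of all genes). The cytosolic superoxide dismutase Sod1 was higher with chow (0.87), and the extracellular superoxide dismutase Sod3 was lower in chow-fed mice (-1.05), with high-dose zalfermin (-0.53) and with the combination (-0.63). Chow-fed mice, in which Hmox1 was lower, had 5 of 7 heme and iron genes higher and 0 lower (26.5% and 28.9% of all genes). Among the 5 was Fech, which inserts iron into heme (0.63). The 6 genes of NADPH supply gave 1 higher and 2 lower both on chow and with high-dose zalfermin, and 1 in each direction with the combination, and 3 of 6 on chow is near the background of 55.4%. Of 6 ferroptosis genes Slc39a14, a metal importer, was higher in these 3 groups, and Acsl4 was lower in chow-fed mice.

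**Figure D3:**
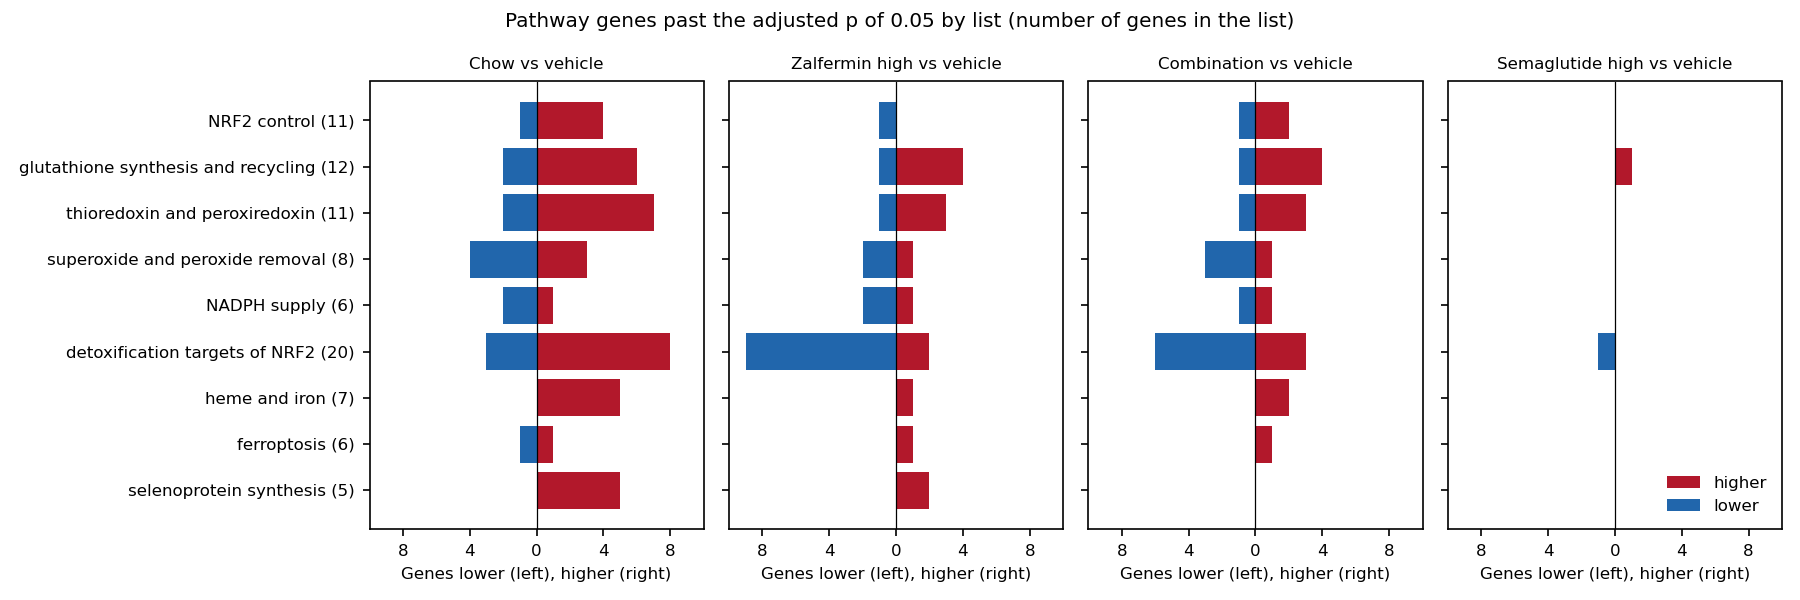
Number of genes past the adjusted p of 0.05 in each of 9 pathway lists (y axis, number of genes in the list in brackets), with genes lower than DIO-MASH vehicle drawn to the left and genes higher drawn to the right (x axis, number of genes). The detoxification list has 9 genes lower and 2 higher with high-dose zalfermin, and 3 lower and 8 higher in chow-fed mice.

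Mice of 1 group also differed from each other, so the 10 genes were compared over the 56 mice after each group's mean was subtracted from the log2 CPM values. Of 45 pairs, 15 were correlated at an adjusted permutation p under 0.05, 12 positively and 3 negatively, and all 3 negative pairs held Gpx4. Gpx4 and Txnrd1, the selenoenzymes, moved in opposite directions (Pearson's r = -0.56, permutation p = 1e-05, the smallest that 100000 permutations can give, adjusted p = 0.000450; Spearman's rho = -0.56, permutation p = 4e-05, adjusted p = 0.00112; r = -0.56 without the 2 mice farthest from the median). A measure of how far a library favours long over short transcripts moved with both (as a description, r = 0.45 for Txnrd1 and -0.47 for Gpx4 within groups), and with that measure regressed out, as was chosen after seeing the data, r was -0.45 (adjusted p = 0.00682). Gpx4 and Cat gave r = -0.58 (permutation p = 3e-05, adjusted p = 0.000675; rho = -0.44, permutation p = 0.00138, adjusted p = 0.0103; -0.48 without the 2 farthest mice).

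Among the positive pairs were the ligase subunits Gclc and Gclm (r = 0.39, permutation p = 0.00663, adjusted p = 0.0229; rho = 0.36, adjusted p = 0.0458; r = 0.40 without the 2 farthest mice). Adjusted p was 0.000750 for Gclm with Txnrd1 (r = 0.52, rho = 0.58, r = 0.48 without the 2), Gclm with Cat (0.53, 0.51 and 0.48), Gclc with Cat (0.53, 0.50 and 0.47) and Nqo1 with Srxn1 (0.46, 0.49 and 0.40). Nfe2l2 correlated at this threshold with Gpx4 alone of the other 9 genes (r = 0.41, adjusted p = 0.0196), and by rho it did not pass (0.32, adjusted p = 0.0691). By Spearman's rho 12 pairs passed, without mouse 6 of low-dose semaglutide 13, with the sample-number series subtracted 15, and with the length measure regressed out 14.

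**Figure D4:**
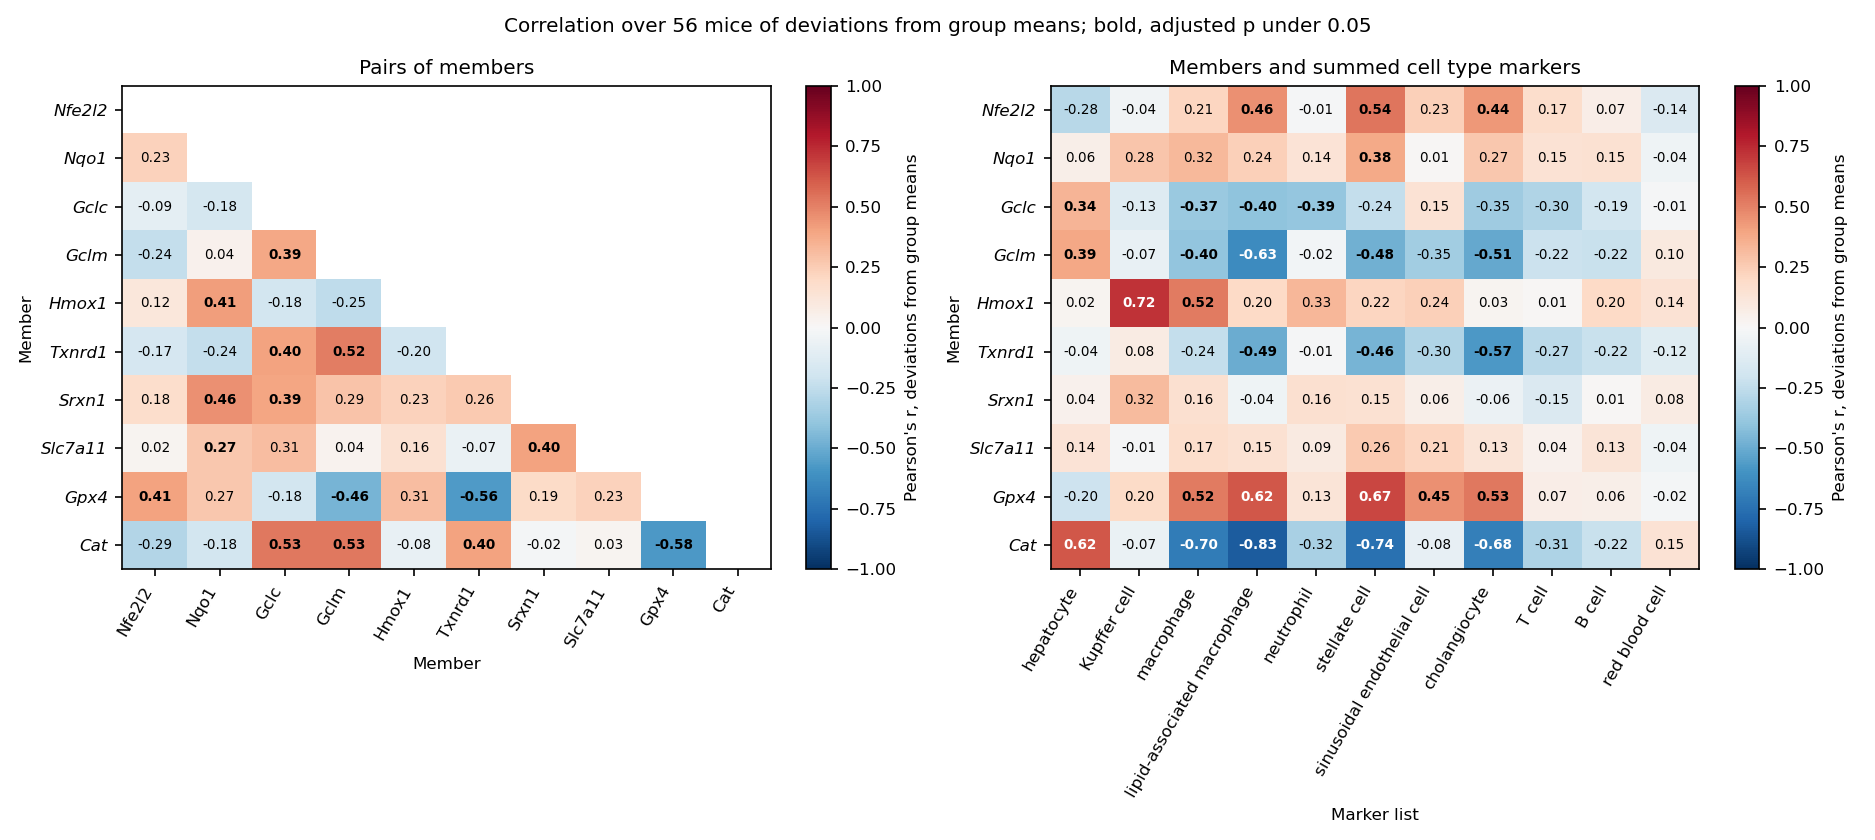
Pearson's r over 56 mice of log2 CPM deviations from group means, for the 45 pairs of the 10 genes (left) and for the 10 genes against 11 cell type marker sums (right); colour runs from -1 (blue) to 1 (red), and bold values have an adjusted permutation p under 0.05. Cat reaches -0.83 with lipid-associated macrophage markers and 0.62 with hepatocyte markers, and Hmox1 0.72 with Kupffer cell markers.

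In a step added after the group differences were known, the same deviations were compared with the summed markers of 11 cell types, 110 relations of which 28 passed, 14 positive and 14 negative. Cat was lower in mice with more of the lipid-associated macrophage markers (r = -0.83, permutation p = 1e-05, adjusted p = 0.000183; rho = -0.84, permutation p = 1e-05, adjusted p = 0.000275; r = -0.82 without the 2 farthest mice), and higher in mice with more of the hepatocyte markers (r = 0.62, permutation p = 1e-05, adjusted p = 0.000183; rho = 0.63, permutation p = 2e-05, adjusted p = 0.000440; 0.63 without the 2). Hmox1 correlated positively with Kupffer cell markers (r = 0.72, permutation p = 1e-05, adjusted p = 0.000183; rho = 0.75, permutation p = 1e-05, adjusted p = 0.000275; 0.72 without the 2). Gpx4 did so with stellate cell markers (r = 0.67, permutation p = 2e-05, adjusted p = 0.000244; rho = 0.50, permutation p = 0.00026, adjusted p = 0.00286; 0.57 without the 2). So did Nfe2l2 (r = 0.54, permutation p = 3e-05, adjusted p = 0.000275; rho = 0.48, permutation p = 0.00054, adjusted p = 0.00440; 0.45 without the 2). These relations were not particular to 1 cell type. Gpx4 passed with 5 of the 11 lists, among them lipid-associated macrophage (r = 0.62) and cholangiocyte markers (r = 0.53). Nfe2l2 passed with 3, the others being the same 2 lists (r = 0.46 and 0.44). Cat passed with 5, among them stellate cell markers (r = -0.74). Srxn1 and Slc7a11 passed with 0 of the 11 marker lists. For Srxn1 r lay at 0.32 with Kupffer cell markers (adjusted p = 0.0995) and at -0.04 with those of lipid-associated macrophages (adjusted p = 0.877). Whether cell composition sets these levels was not tested.

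Over all 56 mice with group differences kept, the genes most like each of the 10 were found by Spearman's rho among genes with a mean of at least 1 CPM, as a description. Catalase was closest to the growth hormone receptor gene Ghr (0.916), Acadsb (0.887) and Aldh7a1 (0.884). Gpx4 was closest to Nans (0.879), Fkbp1a (0.875) and Uap1l1 (0.854), and Srxn1 to S100a10 (0.866), the keratin gene Krt8 (0.857) and Scamp5 (0.837). Nfe2l2 was closest to Morc4 (0.841), Ttc39a (0.829) and Ly6d (0.823). Genes of the wider pathway were the closest for others. Txnrd1 was closest to the glutathione reductase gene Gsr (0.817), then Tex2 (0.782) and Osbp (0.764). Nqo1 was closest to Gstm3 (0.756), then Cdc42 (0.679) and Lig1 (0.673). Gclc was closest to Ugdh (0.745), then Map7 (0.732) and Cars (0.728). Gclm was closest to Gspt1 (0.830), Ufl1 (0.800) and Efr3a (0.795). Hmox1 was closest to the macrophage genes Treml4 (0.808), Cd5l (0.804) and Adgre1 (0.803), the last the gene of the F4/80 antigen. Slc7a11, with few reads, was closest to Ngfr (0.738), Cep192 (0.731) and Hgf (0.707).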

How the data were processed

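Liver RNA from 56 mice was sequenced with a stranded mRNA kit. The authors deposited whole-number counts of reads per gene, unnormalised. The study's methods name STAR v2.5.2a, whereas the submitters' processing notes list Trim Galore 0.6.4, Salmon 1.9.0 and GRCm38. The counting program and strand setting are not given in the sources used here, so the counts may be rounded estimates.

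Groups came from the treatment labels. Genes with at least 5 reads in at least 3 mice (14105) were fitted with edgeR 4.0.16 (quasi-likelihood F test, TMM, 1 model over 7 groups, R 4.3.3). CPM used TMM-scaled library sizes, and log2 CPM a prior count of 2. P-values measure the spread between mice. DESeq2 1.42.0, other filters and size factors, a 2-group fit, the sample-number series or a transcript-length index as covariate and leaving out each mouse were alternatives. The length index (the median log2 CPM of the longest expressed genes minus that of the shortest) was added after seeing the data. The model was tested on simulated counts: of 200 genes changed 2-fold in high-dose zalfermin against vehicle, among 13964 genes, 87.0% were recovered. Of the genes called, 4.92% were false. The changed genes had a mean of at least 1 CPM. Smaller changes, and genes below that level such as Slc7a11, were not simulated. Correlations used 100000 permutations (numpy 2.4.6).

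The 10 genes, the 86 pathway genes and the marker lists were chosen with earlier results of these data known. Every one of the 10 is reported; for each, the 3 genes most like it are named, and from each pathway list genes with the smallest p in a comparison, with others (such as Keap1) named after their values were seen. T cell markers were 4 of 5, since Trac was not among the genes used here.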

Additional observations from a re-analysis of the deposited data

Results flagged for a closer look

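In 70 tests of the 10 genes in the 7 groups, 3 mice lay far from the rest of their group by Dixon's test, which by chance would mark about 1 in 20. In the high-dose zalfermin group Nqo1 was at 12.2 CPM in mouse 2, against 8.90 CPM in the next mouse. Hmox1 was at 57.5 CPM in mouse 8 of low-dose zalfermin, against 37.3 CPM in the next. Gpx4 was at 134 CPM in mouse 6 of low-dose semaglutide, against 207 CPM in the next lowest. That mouse also had the lowest Nfe2l2 (60.2 CPM) and the highest Cat (2800 CPM), Gclm (328 CPM) and Txnrd1 (160 CPM) of its group.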

How the results depend on the processing

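Of 238 counts of called genes among the 10, recomputed under the alternatives, 225 stayed within 1.5 times the value reported, and of 1802 fold changes 1730 kept their direction and side of the threshold. Of these 1730, 1304 came from fits with 1 mouse left out, which share most of their mice. Most of the results were not called to begin with, so these totals say little about the called ones. The calls of Cat and Slc7a11 with high-dose zalfermin were each lost without any 1 of several mice, as given above. With low-dose zalfermin DESeq2 called 1 gene (Srxn1, adjusted p = 0.0475). With high-dose semaglutide, DESeq2, the filter of 10 reads in 8 mice and the length index gave 2 each and the fit of the 2 groups 3. The combination against low-dose semaglutide gave 2 with the length index, and against high-dose zalfermin 1 with DESeq2. Leaving out each mouse gave 6 to 7 calls in chow-fed mice, 4 to 6 with high-dose zalfermin, 0 to 2 with high-dose semaglutide, 2 to 4 with the combination and 0 with either low dose. Between treated groups the 1 mouse left out was mouse 6 of low-dose semaglutide, and the combination against low-dose semaglutide then gave 2. DESeq2 size factors, the filter of 1 read and the sample-number series as covariate changed no call. Over all genes DESeq2 called 211 against 66 with low-dose zalfermin, 32 against 0 with low-dose semaglutide, 516 against 343 with high-dose semaglutide, 176 against 71 for the combination against high-dose zalfermin, 415 against 266 against high-dose semaglutide, 143 against 63 for high-dose zalfermin against high-dose semaglutide and 14 against 2 for the interaction. The cause of these differences was not tested.

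Log2 fold changes turned sign in 38 refits of 9 results, none of them called. Txnrd1 was at -0.00565 with low-dose zalfermin under the series covariate, at 0.00419 (length index) and 0.00544 (2-group fit) with high-dose zalfermin, and at 0.00616 with high-dose semaglutide (length index). Gclc with the combination was at 0.000291 in the 2-group fit. Leaving out each mouse gave Txnrd1 -0.0321 to 0.0733 with low-dose zalfermin, -0.0594 to 0.0624 with high-dose zalfermin and -0.0513 to 0.0542 with high-dose semaglutide. Nqo1 ran from -0.287 to 0.0426 in chow-fed mice, -0.0240 to 0.222 with low-dose zalfermin and -0.0806 to 0.00733 with high-dose semaglutide. Gclm with high-dose zalfermin ran from -0.0331 to 0.0675, and with the combination Hmox1 ran from -0.181 to 0.0162 and Gclc from -0.0997 to 0.0860.

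The filter of 10 reads in 8 mice removed Slc7a11, whose few reads limit its fold changes. No paired analysis was possible because the labels give the mice no replicate numbers shared between groups.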
